A study of Mus musculus with 15 samples.

Results

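The Zfp genes expressed in 4T1 cells are described here, a set of 200 genes named for their zinc finger proteins. They were chosen by symbol and level from the deposited count table, which has 410 rows whose whole symbol is Zfp followed by a number and at most 1 letter. The 200 members are those of the 410 with a mean of at least 10 CPM, the count scaled by the total of its column, over the 15 columns of the table. The level was therefore used in the choice, and the levels below are a description. The members just inside the threshold were Zfp513 and Zfp90, with means of 10.07 and 10.05 CPM, and the rows just outside were Zfp763 and Zfp617, with 9.96 and 9.81 CPM. Of the 210 rows left out, 67 did not reach 1 CPM in any library and 11 of those had no count at all.

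4T1 is a mouse mammary carcinoma line used as a model of triple-negative breast cancer, labelled here as wild type. The 5 conditions were untreated cells and 4 treatments, namely an extract of blackberry (BLA) or of blueberry (BLU), gold nanoparticles made with the blackberry extract (BLA-A) or gold nanoparticles made with the blueberry extract (BLU-A), all maintained in serum-containing medium and treated after seeding. RNA depleted of ribosomal RNA was sequenced, and reads were counted over whole genes, introns included. The table gives 3 columns per condition. The study's methods call its replicates independent and biological unless stated otherwise, while its sequencing report lists the read files under a heading of subset reads. The same supplement counts 15 libraries at alignment but 5 alignment files at gene-level counting. The number of independent libraries is therefore not settled by these sources. Within each condition the columns differed by less than sampling noise and were counted as 1 sample, called a library here, so the differences between conditions have no replicate check.

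Most Zfp proteins carry C2H2 zinc fingers, short loops that hold a zinc ion between a pair of cysteines and a pair of histidines and that read DNA in tandem arrays. In many of them the array is preceded by a KRAB domain, which recruits the corepressor TRIM28 and, through it, the histone methyltransferase SETDB1 and heterochromatin proteins. KRAB zinc finger proteins are best known for silencing retroelements and for protecting imprinted loci, and their genes lie in clusters of recent duplicates. The symbol also covers proteins outside this plan, among them ZFP36 (tristetraprolin), whose CCCH fingers bind AU-rich elements in messenger RNA and promote its decay.

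Where the levels of a gene are listed across the libraries, the order is untreated, then BLA, BLU, BLA-A, and last BLU-A. These levels are CPM with TMM scaling factors, while the choice of members and the marker levels below use column totals alone. In the same order, 19504, 17951, 18843, 16106 and 18263 genes had a mean of at least 10 counts, fewest in BLA-A. Column totals ran from 25611976 to 26957141 counts, at which 3 counts correspond to 0.111 to 0.117 CPM. This floor and the counting errors below cover counting error only. The epithelial markers Epcam, Krt8, Krt18 and Cdh1 were present in each library, from 35.9 CPM for Epcam in BLA-A to 623 CPM for Krt18 in BLA-A. Krt14 was under 1 CPM and Krt5 had no count. Of the receptors low in triple-negative tumours, Pgr was between 0.195 and 1.32 CPM, while Esr1 was at 19.0 to 35.7 CPM and Erbb2 at 22.4 to 50.7 CPM. Ptprc, Cd3e, Pecam1 and Adipoq, which mark immune, endothelial and fat cells, were at most at 2.24 CPM, and the macrophage marker Cd68 was between 7.06 and 8.90 CPM. The part of other cells or of RNA yield in the results was not tested, and in bulk RNA fewer cells and less RNA per cell cannot be told apart.

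By the translated canonical coding sequence, 193 of the 200 members had at least 1 C2H2 finger, and 90 of these also had the conserved core of the KRAB domain. The 90 are called KRAB members below. Only the canonical transcript was searched, so a KRAB domain that departs from the core or lies in another transcript would be missed. How many were missed was not counted, and the other members may include such genes. Zfp1008 had the core without a finger and is counted among the others. The number of fingers ran from 0 to 30, with a median of 12 in the KRAB members and 6 in the other 110. The 7 members without a C2H2 match were Zfp36, Zfp326, Zfp330, Zfp503, Zfp703, Zfp839 and Zfp1008. Among the 204 Zfp rows under the level threshold that have a coding transcript, 59.8% had both features, against 45.0% of the members. Outside the Zfp rows, 1.73% of 21325 coding genes had a C2H2 match.

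Of the members, 36 lay on chromosome 7, 28 on chromosome 17 and 17 on chromosome 8. KRAB members were 24 of the 28 on chromosome 17 and 13 of the 36 on chromosome 7. With a gap of at most 500 kb between neighbours, 50 members fell into 7 groups of at least 5 genes, and 40 of these 50 were KRAB members. The largest group held 15 members, each with the KRAB core, on chromosome 17 of GRCm39 from 21229165 to 23086292, between Zfp160 and Zfp945. A second group on the same chromosome, from 32984470 to 33850753, held 8 members from Zfp871 to Zfp414, Zfp955a, Zfp955b and Zfp101 among them.

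Promoter windows of RefSeq on GRCm38.p6, each from 250 bases before to 50 after a gene's start, were found for 160 of the 200 members, 199 windows in all. The median GC content was 57.0% for the members, 52.3% for the KRAB members, 62.3% for the other members and 52.7% for all 32851 windows. The median number of CpG pairs was 11 in KRAB members and 21 in the others, against 7 in all windows. A GC box (GGGCGG on either strand) was found in 38.9% of the 90 windows of KRAB members, 63.3% of the 109 windows of other members and 35.7% of all windows. A CCAAT box (CCAAT on either strand) was found in 54.4%, 34.9% and 37.4% of them. The other shares for members against all windows were 7.04% against 13.6% for the TATA box (TATAAA), 32.7% against 20.8% for the core of the cyclic AMP response element (TGACG) and 1.51% against 1.63% for the CArG box, the binding motif of serum response factor, all on both strands.

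The upstream 250 bases of 4 members are shown, chosen because these had the largest difference from untreated cells in BLA-A in each direction (Zfp36 and Zfp955a), in BLA (Zfp945) and in BLU (Zfp442). All 4 are on the minus strand and are written 5′ to 3′ toward the gene, with matches to the 5 motifs in capitals. They span chr7:28379229-28379478, chr17:33255146-33255395, chr17:22867135-22867384 and chr2:150451502-150451751 of GRCm38.p6, in this order.
Zfp36: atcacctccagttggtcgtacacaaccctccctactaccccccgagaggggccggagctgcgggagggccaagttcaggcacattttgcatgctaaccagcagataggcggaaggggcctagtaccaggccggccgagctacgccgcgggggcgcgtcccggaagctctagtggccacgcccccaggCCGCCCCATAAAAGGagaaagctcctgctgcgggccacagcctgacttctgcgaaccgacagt
Zfp955a: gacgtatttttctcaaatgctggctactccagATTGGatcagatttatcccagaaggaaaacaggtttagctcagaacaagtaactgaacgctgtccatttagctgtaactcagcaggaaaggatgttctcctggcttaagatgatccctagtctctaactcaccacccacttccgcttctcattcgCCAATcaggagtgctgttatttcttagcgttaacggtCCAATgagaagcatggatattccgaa
Zfp945: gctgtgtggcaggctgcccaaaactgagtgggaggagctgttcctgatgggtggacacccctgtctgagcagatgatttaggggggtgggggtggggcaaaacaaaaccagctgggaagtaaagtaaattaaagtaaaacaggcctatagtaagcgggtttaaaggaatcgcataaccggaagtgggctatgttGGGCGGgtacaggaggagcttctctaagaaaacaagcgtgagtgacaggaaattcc
Zfp442: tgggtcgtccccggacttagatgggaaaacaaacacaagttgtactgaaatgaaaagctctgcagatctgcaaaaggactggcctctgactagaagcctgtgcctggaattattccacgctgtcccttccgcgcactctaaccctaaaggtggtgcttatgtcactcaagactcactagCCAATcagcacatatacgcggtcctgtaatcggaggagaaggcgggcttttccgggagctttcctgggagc

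In these stretches Zfp36 holds 18 CpG pairs, Zfp955a 7, Zfp945 5 and Zfp442 10. The capitals in Zfp36 are a GC box and a CArG box that overlap by a base, and those in Zfp955a are 3 CCAAT boxes. A match describes the letters only.

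The mean level of the members ranged from 10.0 to 330 CPM with a median of 23.7 CPM, against 44.8 CPM for the 9764 genes of the table with a mean of at least 10 CPM. Of the 200, 193 were at or above 10 CPM in untreated cells and 151 in each of the 5 libraries. The highest mean count rates belonged to Zfp106, Zfp827, Zfp609, Zfp292, Zfp644, Zfp608, Zfp462, Zfp148, Zfp207 and Zfp469, which are mostly long genes, and none of these 10 is a KRAB member. Per kilobase of gene span the order was different. Zfp503, a corepressor related to ZFP703, led with a mean over the libraries of 27.0 CPM per kb, followed by Zfp36 at 18.7, Zfp469 at 11.4, Zfp687 at 9.65 and Zfp830 at 7.57 CPM per kb. The median of the level per kilobase was 0.874 CPM per kb in the KRAB members and 1.5 CPM per kb in the others.

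The range of a member over the 5 libraries, from its lowest to its highest level, had a median of 0.76 on the log2 scale. It ran from 0.155 for Zfp217, a corepressor component whose human gene is amplified in breast cancers, to 2.87 for Zfp442, and exceeded 1 in 49 members. The share of all genes with such a range was not counted. Zfp217 measured 96.6, 94.1, 104.8, 97.5 and 101.0 CPM across the libraries, so that the 5 libraries lay close together. BLA-A was the lowest of the 5 libraries at 117 of 200 members, or 58.5%, against 31.3% of all genes with a mean of at least 10 CPM. BLA was the lowest at 9.5% of members (24.2% of those genes), BLU at 10.0% (14.2%) and BLU-A at 8% (8.63%). The lowest level was in BLA-A for 68 of the 90 KRAB members and 49 of the 110 others. The summed level of the KRAB members was 2340, 2630, 2680, 1780 and 2360 CPM across the libraries, lowest in BLA-A. That of the other members was 6050, 7010, 6880, 6430 and 6430 CPM, lowest in untreated cells.

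Log2 fold changes are given on TMM-normalized CPM plus 0.5, and a member is counted as higher or lower when its log2 fold change passed 1 in size. Each such value compares a pair of libraries and carries no p-value. Its counting error, from 0.0214 to 0.167 on the log2 scale over the members, leaves out all variation between cultures.

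In BLA-treated cells 1 member was higher than in untreated cells and none lower. Among all genes with a mean of at least 10 CPM, 3.65% were higher and 1.59% lower. The member was Zfp945, a KRAB gene of the large chromosome 17 group. Zfp945 measured 22.2, 47.2, 31.4, 17.3 and 25.1 CPM across the libraries. It was highest in BLA, at 1.07 above untreated cells on the log2 scale (counting error 0.0717). Over the 200 members the median log2 fold change was 0.11, against -0.01 for all genes at this level. Above 0 were 118 members, beside 4770 of the 9764 genes at this level. The largest decrease in size was -0.92, short of the threshold.

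In BLU-treated cells 2 members were higher and none lower, with 2% and 0.389% of all genes at this level higher and lower. Zfp442, a KRAB gene at 150244400 to 150293466 of chromosome 2 (GRCm39), had a mean count per column of 279 in untreated cells and 1885 in BLU. Its level was 10.5, 17.8, 68.4, 8.96 and 14.8 CPM across the libraries, which sets the BLU library apart from the other 4. The log2 fold change in BLU was 2.65 (counting error 0.0925), or 6.28-fold. Of the 50-base words in its coding sequence, 47.2% also occur in the coding sequence of another gene, most often 3300002I08Rik, so reads in these stretches cannot be assigned with certainty. That gene was at 33.4 CPM in untreated cells and 43.9 CPM in BLU. Zfp868, also a KRAB gene, measured 12.4, 14.8, 25.3, 20.9 and 17.0 CPM across the libraries. It was lowest in untreated cells, and its log2 fold change in BLU was 1.00, just past the threshold. The median over the members was 0.12 in BLU, against -0.01 for all genes at this level. Above 0 were 129 members, beside 4733 of the 9764 genes at this level.

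In BLU-A-treated cells no member passed the threshold in either direction. Of all genes at this level 0.768% were higher and 0.102% lower. The members ranged from -0.65 to 0.74 with a median of 0.04, against 0.01 for all genes at this level.

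In BLA-A-treated cells 7 members were higher and 12 lower, which is 3.5% and 6% of the members. The BLA-A level entered the mean by which members were chosen. Of the 193 members at or above 10 CPM in untreated cells, 6 were higher and 12 lower. Of all genes with a mean of at least 10 CPM, 7.8% were higher and 4.75% lower. The members' median log2 fold change was -0.26, against 0.09 for all genes at this level and -0.01 for all 17594 genes tested. The members had a lower median level than the genes of at least 10 CPM, 23.7 against 44.8 CPM. Of the 200 members 138 were below 0, beside 4250 of those 9764 genes. With scaling by column totals alone, which moved the median of all genes tested by -0.17, 5 members were higher and 21 lower. With DESeq2 size factors 7 were higher and 7 lower. The shares of all genes were not counted under these other scalings, so the shares above hold for TMM only.

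**Figure D1:**
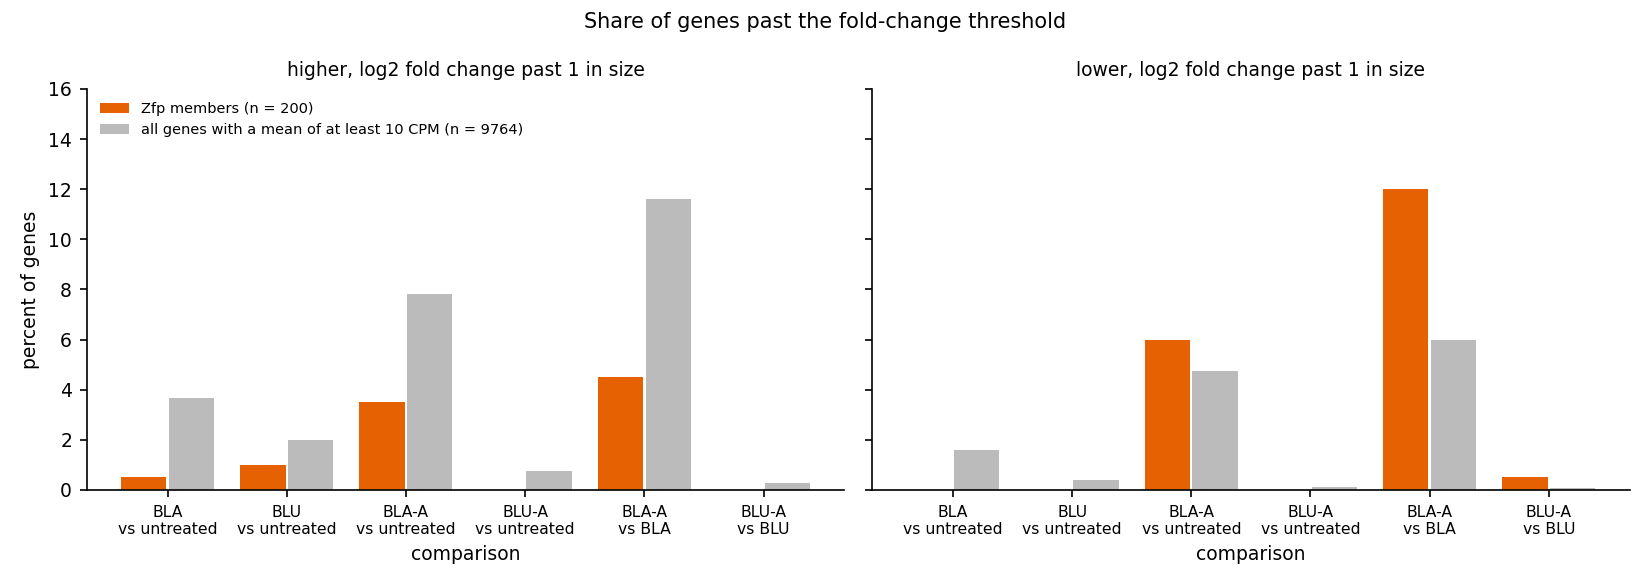
Percent of genes beyond the fold threshold, a log2 value of 1, higher (left) and lower (right), for each comparison of 2 libraries on the horizontal axis. Orange bars are the 200 Zfp members and grey bars the 9764 genes with a mean of at least 10 CPM, and the orange bar exceeds the grey one only for lower genes in BLA-A against untreated (6% and 4.75%), in BLA-A against BLA and in BLU-A against BLU.

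The 7 higher members in BLA-A were Zfp36, Zfp703, Zfp513, Zfp358, Zfp526, Zfp414 and Zfp628, none of which is a KRAB member. Zfp36, at 28076209 to 28079710 of chromosome 7 (GRCm39), had a mean count per column of 1010 in untreated cells and 4286 in BLA-A. Its level was 37.9, 31.7, 29.5, 184.9 and 42.8 CPM across the libraries. BLA-A stood far above the other 4 libraries, which lay between 29.5 and 42.8 CPM. The log2 fold change was 2.27 (counting error 0.0505), or 4.83-fold.

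Zfp703, a transcriptional corepressor whose human counterpart is amplified in some luminal breast cancers, lies on chromosome 8 from 27467135 to 27471489. It measured 19.5, 19.3, 20.1, 60.3 and 20.8 CPM across the libraries. The other 4 libraries were nearly level, and BLA-A was 3.04-fold above untreated cells (log2 fold change 1.60). Zfp513 measured 6.64, 8.81, 9.04, 19.1 and 7.78 CPM across the libraries, a log2 fold change of 1.46 in BLA-A. It is 1 of the 7 members under 10 CPM in untreated cells. Zfp513 was above 10 CPM in BLA-A only, so it was chosen through the same library in which it is counted as higher. Zfp358 was at 13.6, 14.3, 13.4, 35.2 and 13.1 CPM in this order, and Zfp526 at 15.1, 15.9, 13.5, 35.2 and 15.7 CPM. In both genes BLA-A alone was high, with log2 fold changes of 1.34 and 1.196. Zfp414 and Zfp628 followed with 1.08 and 1.06. The high level of Zfp414 in BLA-A also entered the mean by which it was chosen. All 7 are short genes, from 2.70 kb for Zfp414 to 7.85 kb for Zfp513, against a median span of 23.4 kb over the members.

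The 12 lower members in BLA-A were Zfp955a, Zfp101, Zfp606, Zfp110, Zfp322a, Zfp873, Zfp950, Zfp518a, Zfp57, Zfp397, Zfp958 and Zfp398, and 9 of them are KRAB members. The other 3 are Zfp322a, Zfp518a and Zfp397. Zfp955a, on chromosome 17 of GRCm39 from 33361836 to 33474119, measured 42.8, 39.4, 45.7, 11.9 and 38.7 CPM across the libraries. BLA-A lay far below the other 4 libraries, and the log2 fold change was -1.81 (counting error 0.0969). Of the 50-base words of its coding sequence, 56.9% also occur in another gene, most often its neighbour Zfp955b. Zfp955b measured 64.7, 62.3, 73.3, 35.1 and 62.6 CPM across the libraries, a log2 fold change of -0.87 in BLA-A. In both copies BLA-A was the lowest library.

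Zfp101, of the same chromosome 17 group, was at 25.2, 21.0, 31.2, 8.01 and 25.3 CPM in the same order, a log2 fold change of -1.59. Zfp606 was at 26.1, 18.7, 18.2, 9.55 and 22.2 CPM, with -1.40. It was below untreated cells in each treatment and lowest in BLA-A. Zfp110, whose product interacts with the p75 neurotrophin receptor, was at 36.5, 32.6, 34.0, 14.7 and 32.0 CPM, with -1.28. Zfp322a was at 21.5, 17.5, 15.9, 9.71 and 15.3 CPM, with -1.11. In Zfp110 the other 3 treatments lay close to untreated cells, and in Zfp322a all 4 lay below them. Zfp606 and Zfp110 overlap no other annotated gene, while Zfp955a, Zfp101 and Zfp322a each do. Zfp398 and Zfp958 were at the threshold, with log2 fold changes of -1.003 and -1.004, and Zfp398 was short of it when replicate column 1 or 3 was left out.

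**Figure D2:**
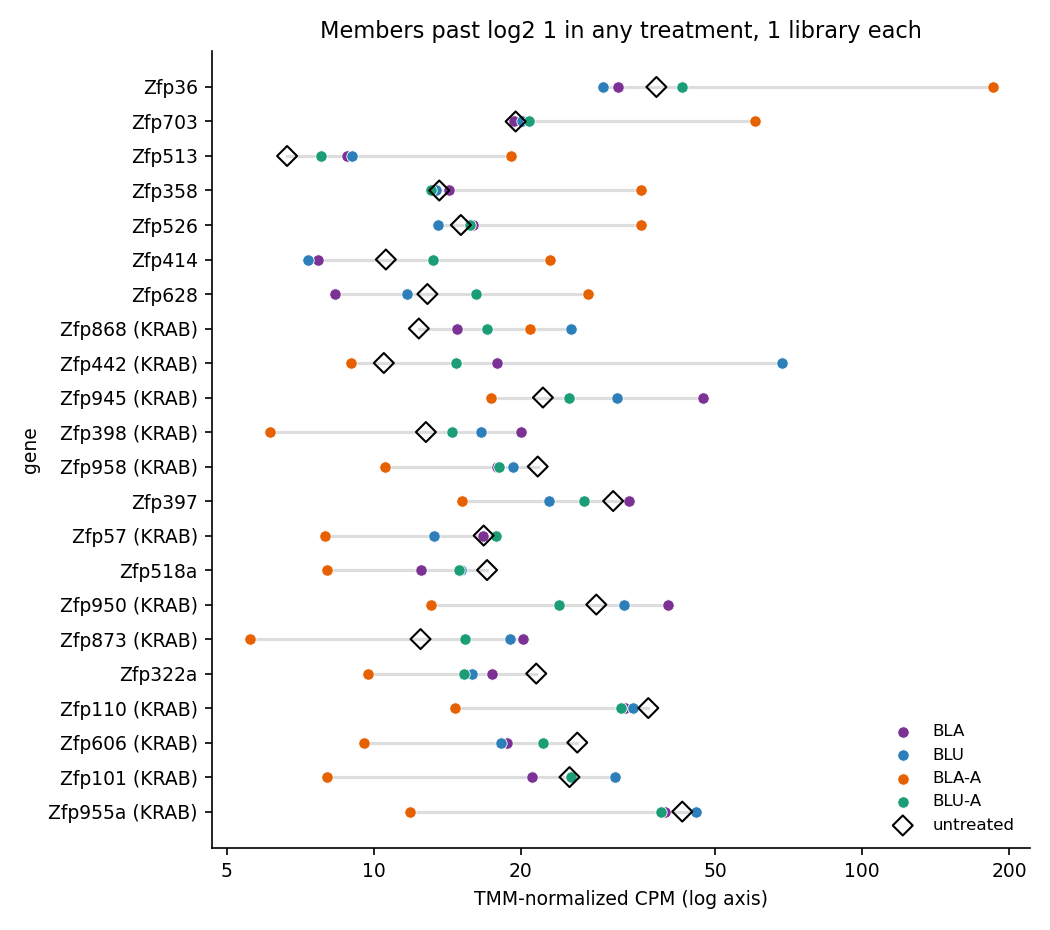
TMM-normalized CPM on a log axis of the 22 members beyond the threshold in at least 1 treatment, each line spanning the lowest to the highest of the 5 libraries. Open diamonds are untreated cells and circles the 4 treatments, 1 library each, and BLA-A is the highest library in 7 genes (184.9 CPM for Zfp36) and the lowest in the 12 that were lower in it (11.9 CPM for Zfp955a), while BLU is alone at the high end of Zfp442.

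The KRAB members and the other members differed most in BLA-A. The median log2 fold change of the 90 KRAB members was -0.48 in BLA-A, and 0.19, 0.18 and 0.08 in BLA, BLU and BLU-A. That of the other 110 was -0.11 in BLA-A, and 0.07, 0.07 and 0.02 in the other 3. In BLA-A 75 of the 90 KRAB members and 63 of the 110 others were below untreated cells. These are medians over genes of 1 library per condition, and genes are not replicates of a treatment. KRAB members had lower levels than the others, with medians of 18.8 and 37.3 CPM, and similar spans, with medians of 23.9 and 21.5 kb. Below the median span of all members, the BLA-A median was -0.52 in 43 KRAB members and -0.11 in 57 others. At or above it, it was -0.40 in 47 KRAB members and -0.10 in 53 others.

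The BLA-A values are given next for members with little shared sequence and for members without an overlapping gene. Of the 90 KRAB members, 70 share under 10% of their 50-base coding words with any other gene, and their median in BLA-A was -0.45, with 58 of the 70 below 0. The 28 KRAB members that overlap no other annotated gene had a median of -0.39, and 25 of them were below 0. The 29 other members without an overlap had a median of -0.20. By number of fingers, the BLA-A medians were -0.22 for 0 to 4, -0.22 for 5 to 9, -0.42 for 10 to 14 and -0.28 for 15 or more fingers, without a steady order.

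**Figure D3:**
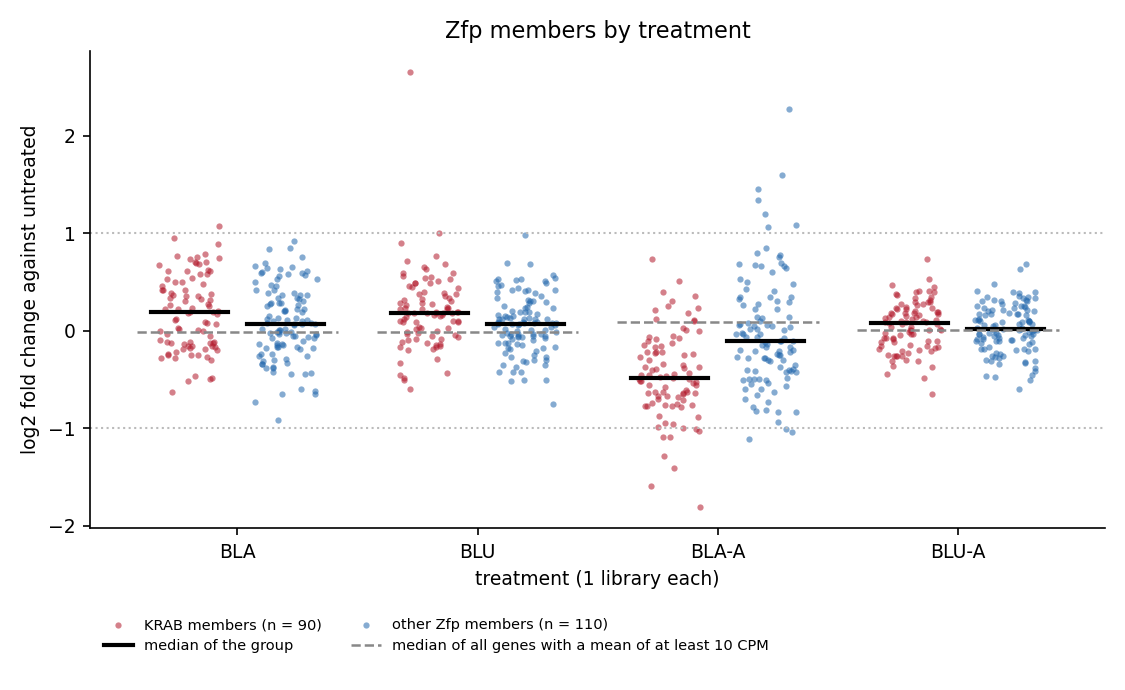
Log2 fold change against untreated cells of each Zfp member (points, spread sideways for sight) in the 4 treatments, 1 library each, with 90 KRAB members in red and 110 other members in blue. Black bars are medians and dashed lines the median of all genes with a mean of at least 10 CPM. In BLA-A the KRAB median is at -0.48 and the dashed line at 0.09, and in the other 3 treatments the KRAB median is above 0.

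The groups of neighbours on chromosome 17 both had a BLA-A median below 0, as had a group on each of chromosomes 6, 7 and 13. In the group of 15 from Zfp160 to Zfp945, the median log2 fold changes by treatment, in the same order as above without untreated cells, were 0.46, 0.28, -0.37 and 0.10, and 12 of the 15 were below 0 in BLA-A. In the group of 8 around Zfp955a it was -0.09, 0.11, -0.70 and -0.02, with 6 of 8 below 0 in BLA-A. Zfp414, which was higher in BLA-A, belongs to this group too. On chromosome 7 the 6 members from Zfp84 to Zfp146 had a BLA-A median of -0.54, with 6 below 0. On chromosome 6 the 5 from Zfp398 to Zfp746 had -0.43, with 5 below 0. On chromosome 13 the 6 from Zfp458 to Zfp65 had -0.15, with 4 below 0. The 5 members from Zfp553 to Zfp646 on chromosome 7 had a median of 0.075, with 2 below 0. A group of 5 KRAB members on chromosome 9, from Zfp560 to Zfp846, had a median of 0.31 in BLA-A and 1 of 5 below 0.

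Of the 9 listed KRAB genes with known targets, 6 were members (Zfp57, Zfp445, Zfp568, Zfp809, Zfp932 and Zfp961). All 6 were below untreated cells in BLA-A, as were 75 of all 90 KRAB members. Of the 6, 1 was past the threshold, and of the 90, 9 were. The list of 9 and the other role lists were drawn up with earlier results of these data known. Zfp57 binds methylated imprinting control regions and keeps their methylation. It measured 16.8, 16.7, 13.3, 7.95 and 17.8 CPM across the libraries, and was lowest in BLA-A with a log2 fold change of -1.03. Zfp445, which acts with Zfp57 at imprinted loci, was at 91.9, 103.6, 112.4, 49.7 and 82.3 CPM, with -0.88 in BLA-A. Zfp809, which silences retroviruses through their primer binding site, was at 72.9, 74.2, 82.6, 46.4 and 69.1 CPM, with -0.65. In each of the 3 genes BLA-A was the lowest library and the other 4 lay between 13.3 and 17.8, 82.3 and 112.4, and 69.1 and 82.6 CPM. Zfp568, Zfp932 and Zfp961 had log2 fold changes of -0.48, -0.67 and -0.55 in BLA-A. Almost all 50-base words of Zfp932, 99.7%, occur in another annotated gene.

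Of the 11 listed genes of RNA binding, decay and translation 10 were members, and Zfp36 was the only one past the threshold, in BLA-A. The median log2 fold change of the 10 was lowest in BLA-A, at -0.304, and was -0.155, -0.207 and -0.068 in BLA, BLU and BLU-A. Zfp106, an RNA-binding protein needed by motor neurons, measured 349.1, 309.9, 297.8, 385.1 and 311.4 CPM across the libraries. Zfp598, the ubiquitin ligase that marks collided ribosomes, was at 59.1, 49.9, 43.8, 63.3 and 59.9 CPM. Both were lowest in BLU and highest in BLA-A. Zfp638, which binds RNA and recruits the HUSH silencing complex to retroviral DNA, was at 153.1, 146.2, 174.4, 93.9 and 154.3 CPM, with BLA-A low at a log2 fold change of -0.70. Zfp622, a factor of ribosome assembly, and Zfp385a were below untreated cells in each treatment, between -0.38 and -0.18 and between -0.82 and -0.34.

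All 18 listed genes of chromatin and corepressor complexes were members, and Zfp703 was the only one past the threshold. Their median was near 0 in BLA-A, at 0.009, and 0.171, 0.137 and 0.166 in BLA, BLU and BLU-A. Zfp532, Zfp592 and Zfp687, which form a complex with ZMYND8, ranged from -0.25 to 0.30 over the 4 treatments. Zfp207, a kinetochore protein that stabilizes BUB3, measured 152.4, 135.6, 170.1, 241.4 and 149.5 CPM across the libraries, highest in BLA-A with 0.66. Zfp827, which recruits the NuRD complex to telomeres, was at 205.9, 332.6, 293.3, 183.2 and 260.3 CPM, with 0.69 in BLA and -0.17 in BLA-A. Zfp410, known for activating Chd4, ranged from -0.31 in BLA-A to 0.31 in BLA, while Chd4 itself ranged from -0.18 in BLU-A to 0.32 in BLA-A. Of the 12 listed genes of ubiquitin, stress and signalling, 7 were members and 1, Zfp110, was past the threshold. Zfp503 was at 139.6, 134.8, 131.7, 221.7 and 140.6 CPM, highest in BLA-A with 0.66, as Zfp703 of the same family was.

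Across the 4 treatments, 28 members (14.0%) were above untreated cells in all 4 and 26 (13.0%) below in all 4. Of all genes with a mean of at least 10 CPM 21.6% were above and 17% below. The 4 comparisons share the untreated library. No member passed the threshold in all 4, and 22 passed it in at least 1. The matching shares of all genes were not counted, so these counts describe the members only. Ranked by their smallest difference, the members above untreated cells in all 4 were led by Zfp407, Zfp710, Zfp516, Zfp697 and Zfp609. Zfp407, the member with the longest span (462 kb, on chromosome 18), measured 90.4, 172.0, 179.2, 146.8 and 140.1 CPM across the libraries. Zfp710 was at 34.8, 63.2, 56.4, 53.3 and 56.4 CPM in the same order. In both genes untreated cells lay below all 4 treatments. Zfp609, which binds the cohesin loader NIPBL, was at 184.9, 273.4, 268.2, 262.6 and 242.7 CPM. The members below untreated cells in all 4 were led by Zfp385a, Zfp281, Zfp322a, Zfp606 and Zfp622. Zfp281, a regulator of pluripotency genes, was at 65.8, 41.8, 51.6, 50.7 and 52.5 CPM, so that untreated cells lay above all 4 treatments.

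In the comparison of all 4 treatments with untreated cells, the quasi-likelihood test of edgeR called no member at an adjusted p of 0.05 (Benjamini-Hochberg over 17594 genes) and 0.0227% of all genes. Treatments that differ from each other widen the spread in this test, and untreated cells have 1 library. An unadjusted p under 0.05 was found for 2 of the 200 members (1%), Zfp407 and Zfp710, and for 2.72% of all genes. Zfp407 was higher in 4 of 4 treated libraries, by 0.82 on the log2 scale (standard error 0.27, adjusted p = 0.9996). Zfp710 was higher in 4 of 4 too, with 0.72 (standard error 0.26, adjusted p = 0.9996). The Wald test of DESeq2 called no member either, and 18 of all genes.

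The nanoparticle libraries were next compared with the extracts they were made with. In BLA-A against BLA, 9 members were higher and 24 lower (4.50% and 12.0%), while 11.6% and 5.99% of all genes with a mean of at least 10 CPM were higher and lower. Of the 193 members at or above 10 CPM in untreated cells, 8 were higher and 23 lower. All 20 KRAB members past the threshold were lower. None of the 9 higher members is a KRAB member, nor are 4 of the 24 lower ones. The median log2 fold change was -0.64 for KRAB members, -0.24 for the others and 0.02 for all genes at this level. For all 17594 genes tested it was -0.08. Of the 90 KRAB members 81 were below 0, beside 4796 of the 9764 genes at this level. Zfp873 measured 12.5, 20.2, 19.0, 5.57 and 15.4 CPM across the libraries. It was lowest in BLA-A and highest in BLA, a log2 fold change of -1.77 between them. Zfp398 was at 12.8, 20.0, 16.6, 6.13 and 14.5 CPM, with -1.63, and Zfp955a followed the values above with -1.69. The largest differences in the other direction were those of Zfp36 at 2.53, Zfp628 at 1.66 and Zfp703 at 1.62. Zfp628 was at 12.9, 8.33, 11.7, 27.4 and 16.2 CPM, lowest in BLA and highest in BLA-A.

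In BLU-A against BLU, no member was higher and 1 was lower, with 0.287% and 0.0819% of all genes at this level higher and lower. The member was Zfp442, which was at 14.8 CPM in BLU-A and 68.4 CPM in BLU, a log2 fold change of -2.18. The median over the members was -0.11, against -0.01 for all genes at this level.

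With both nanoparticle libraries set against both extract libraries, the same edgeR test, adjusted by Benjamini-Hochberg, called neither a member nor any other gene (0% of 17594). The smallest adjusted p of a member was 0.698. An unadjusted p under 0.05 was found for 14 members (7%), 3 higher and 11 lower, and for 6.05% of all genes. The Wald test of DESeq2 called no member and 36 of all genes. Zfp414 had the smallest p of the members. It measured 10.6, 7.67, 7.32, 23.0 and 13.2 CPM across the libraries, so both nanoparticle libraries lay above both extracts. Its high level in BLA-A entered the mean by which it was chosen, so the choice and the test share that value. The difference was 1.27 on the log2 scale (standard error 0.38, adjusted p = 0.698). Zfp36 was at 1.90 (standard error 0.60) and Zfp442 at -1.86 (standard error 0.61), each in the same direction in both berries and each with an adjusted p of 0.698. Zfp458, a KRAB gene on chromosome 13, was at 14.0, 27.6, 24.1, 11.9 and 16.5 CPM, both extracts above both nanoparticle libraries, with a difference of -0.86 on the log2 scale (standard error 0.31, adjusted p = 0.698). Without the BLU-A library the same test called 51 members, 15 of them higher, and 24.4% of all genes, which then compares the single BLA-A library with the 2 extracts.

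Other zinc finger families of the same level are set beside the members, by symbol alone. Among all 9764 genes at this level, 7.8% were higher and 4.75% lower past the threshold in BLA-A, with 5510 above 0 and 4250 below 0. The Zbtb genes (n = 31), whose BTB domain also recruits corepressors, had a median of 0.03 in BLA-A, with 2 higher and none lower. The Klf and Sp genes (n = 15), which bind GC-rich promoters, had a median of 0.63, with 1 higher, none lower and 13 of 15 above 0. The Zscan and Zkscan genes (n = 11), many of which carry a SCAN domain, had a median of -0.32, with none past the threshold and 8 of 11 below 0. In BLA, BLU and BLU-A the medians of these 3 families lay between -0.05 and 0.17.

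All 25 listed cofactors of KRAB zinc finger proteins were tested, and none passed a log2 fold change of 1 against untreated cells in any treatment or an adjusted p under 0.05 in the quasi-likelihood tests (smallest 0.698). Trim28, the corepressor itself, measured 230.9, 150.2, 156.7, 312.5 and 168.9 CPM across the libraries. It was highest in BLA-A (log2 fold change 0.44) and below untreated cells in the other 3 treatments (-0.62, -0.56 and -0.45). In BLA-A against BLA it was at 1.05, the only cofactor of the 25 past the threshold there, where 11.6% of all genes at this level were higher. Setdb1, the methyltransferase, ranged from 0.10 to 0.18. Of the HUSH subunits, Mphosph8 was at -0.92 and Tasor at -0.32 in BLA-A, and Pphln1 at 0.23. The median of the 25 lay between -0.12, in BLA, and -0.05, in BLA-A.

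**Figure D4:**
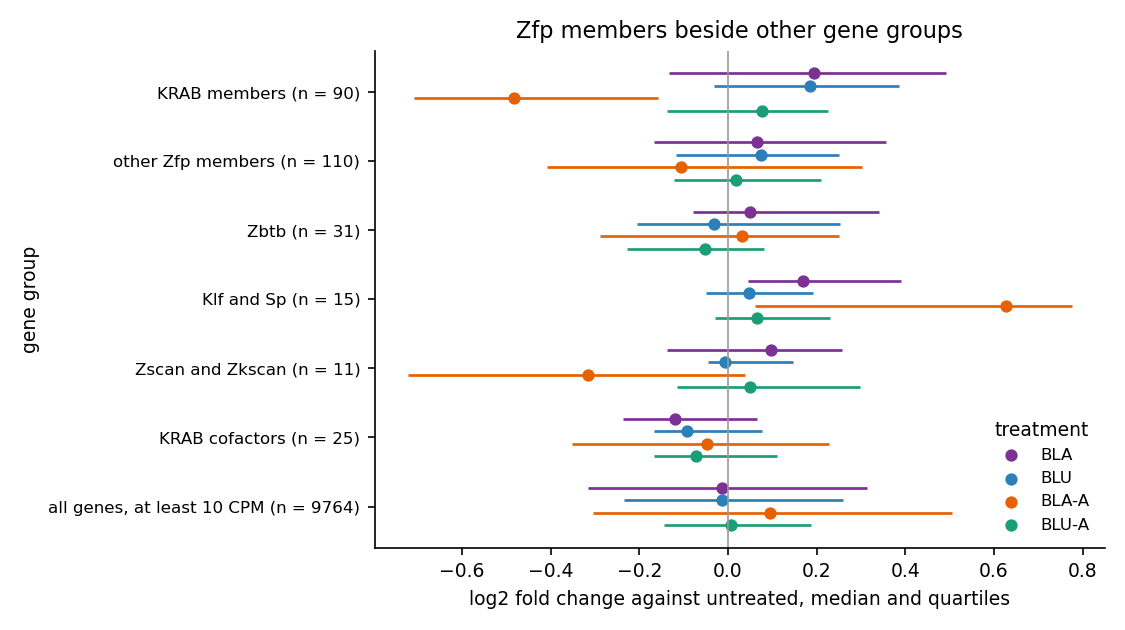
Median (point) and quartiles (line) of the log2 fold change against untreated cells on the horizontal axis, for 7 gene groups, coloured by treatment with 1 library each. In BLA-A the median is -0.48 for KRAB members, -0.11 for the other members, 0.63 for Klf and Sp genes and 0.09 for all genes with a mean of at least 10 CPM.

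Gene span moved with the log2 fold changes in 3 treatments. Across the 200 members, which share these libraries and are not independent, the Spearman correlation of span with log2 fold change was 0.33 for BLA, 0.42 for BLU, -0.02 for BLA-A and 0.24 for BLU-A. In this order it was 0.163, 0.205, 0.015 and 0.049 in the KRAB members. In the other members it was 0.433, 0.545, -0.066 and 0.363. Over 9484 genes with a mean of at least 10 CPM and a known span it was 0.52, 0.55, -0.03 and 0.37. Reads in introns were counted, and whether unspliced RNA had a part in these values was not tested. Of the members, 131 overlap a gene on the opposite strand and 46 one on the same strand, and 57 overlap none. Counts were made by strand, but the read pairs had been merged before counting, so a gene and its antisense partner cannot be told apart with certainty. In the 57 without an overlap the median log2 fold change was -0.28 in BLA-A, 0.09 in both extracts and -0.0045 in BLU-A.

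**Figure D5:**
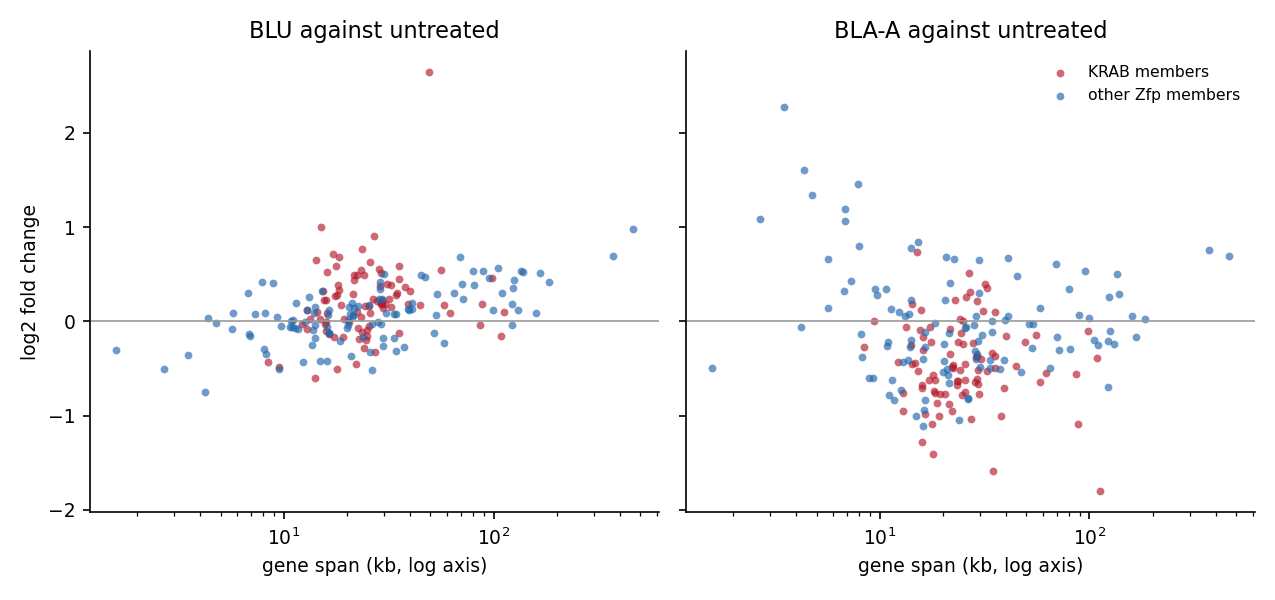
Log2 fold change against untreated cells of each Zfp member in BLU (left) and BLA-A (right), 1 library each, against gene span in kb on a log axis, with KRAB members in red and other members in blue. In BLU the points rise with span (Spearman 0.42 over all members, 0.205 in KRAB members and 0.545 in the others). In BLA-A no such order is seen (-0.02), with the 7 highest genes under 8 kb and most red points below 0.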

How the data were processed

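Bulk RNA-seq counts of 5 conditions were analysed. From libraries depleted of ribosomal RNA, the authors aligned reads with STAR in OmicsBox to GRCm39 (RefSeq) and deposited raw counts per gene for 40402 genes in 15 columns, counted on whole genes by strand. Processing notes of the submitters name DESeq2 1.36.0. Tables of the authors' own fold changes, p-values and enrichment scores were not used.

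The 3 columns of a condition had a chi-square per degree of freedom of 0.0951 to 0.475 and were averaged as 1 library. Column totals are given in the report. Same-numbered columns of different conditions did not deviate together (median correlation 0.00157 over 30 pairs), so the replicate numbers, taken from the labels, pair nothing. The 17594 genes that reached 1 CPM in any library were normalized by TMM in edgeR 4.0.16 under R 4.3.3. A pseudocount of 0.5 CPM was added before the log2 scale. Quasi-likelihood tests used the 5 libraries, and DESeq2 1.42.0 was an alternative. They were tested on simulated data.

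Positions, overlaps and coding sequences came from the canonical transcripts of GENCODE release M39, since no RefSeq protein table was at hand. A C2H2 finger was matched by its spacing of cysteines and histidines, and the KRAB core by its tryptophan with at least 5 of 6 further residues. Members with both are called KRAB members. Promoters came from RefSeq on GRCm38.p6.

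Genes were named by fixed rules. These take the highest levels, up to 5 members a direction past the threshold in each treatment and up to 3 in each nanoparticle comparison, the 5 leading members in all 4 treatments, the 5 smallest p in each test, the role lists and the neighbours of the level threshold. Zfp955b, Zfp217 and the groups of neighbours were chosen after their values were seen, as were the words shared between coding sequences. The members and all lists were chosen with earlier results of these data known. Alternatives covered normalization, pseudocount, filters, columns, tests and left-out libraries.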

Additional observations from a re-analysis of the deposited data

Results flagged for a closer look

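The median log2 fold change of the KRAB members was below 0 in BLA-A, at -0.48, and above 0 in the other 3 treatments, at 0.19 (BLA), 0.18 (BLU) and 0.08 (BLU-A). The difference between treatments was not tested, since each has 1 library.

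The nanoparticle and its extract differed in opposite directions in the blackberry and the blueberry pair at 2 members by more than 0.5 in size on both sides, and this was not tested either. The share of all genes that meet this rule was not counted, so the 2 are a description only. Past 0.5 in size were 50.5% of members and 48.0% of all genes of at least 10 CPM in BLA-A against BLA. In BLU-A against BLU these shares were 9.5% and 6.04%. Zfp949 was at 14.7 CPM in BLA and 8.47 CPM in BLA-A, a log2 fold change of -0.76, and at 12.4 CPM in BLU and 22.8 CPM in BLU-A, a log2 fold change of 0.86. Zfp119a was at 13.7 CPM in BLA and 4.55 CPM in BLA-A (-1.49), and at 8.61 CPM in BLU and 13.9 CPM in BLU-A (0.66). Of the 50-base words in the coding sequence of Zfp119a, 17.3% occur in another gene, most often Zfp119b.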

How the results depend on the processing

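Counts past a log2 fold change of 1 depended on the threshold of level and fold. With members of at least 5 CPM, 6 members passed in BLA (2.33% of members, 6.8% of all genes at that level), 2 in BLU-A (0.775% and 1.56%) and 3 in BLU-A against BLU (1.16% and 0.869%). With members of at least 20 CPM, 1 passed in BLU (0.84% and 2.04%), 7 in BLA-A (5.88% and 11.3%) and 15 in BLA-A against BLA (12.6% and 15.4%). A threshold of 0.5 on the log2 scale gave 84 members in BLA-A (42%, beside 41.6% of all genes of at least 10 CPM), 7 in BLU-A (3.5% and 7.61%), 49 for BLA (24.5% and 29.3%) and 31 for BLU (15.5% and 18.4%). In BLU the count was 1 with DESeq2 size factors, with column totals alone and with a pseudocount of 2 CPM, and 1 to 2 with each replicate column left out, since Zfp868 lies at the threshold. In BLA-A a pseudocount of 2 CPM left 11 members. Higher and lower members in BLA-A against BLA were 7 and 38 with column totals and 9 and 19 with DESeq2 size factors. The shares of all genes were not counted under these other scalings, pseudocounts and left-out columns.

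Entered as 15 separate columns, the quasi-likelihood test called 24 members for the 4 treatments (12% of members, 20.1% of all genes tested) and 119 for nanoparticle against extract (59.5% and 50.1%). A replicate block gave 16 (8% and 14.1%) and 107 (53.5% and 43.5%). Within each condition the columns varied less than sampling noise, so these calls are not set against a spread between cultures. Without a filter on low counts 2 members were called for nanoparticle against extract (1% and 1.94%), and 0 to 51 with each library left out, 51 without BLU-A (25.5% and 24.4%). The cause was not tested.

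The median over the members kept its sign under each alternative in 5 comparisons. In BLU-A it ranged from -0.0045 (members without an overlapping gene, an alternative chosen after the data were seen) to 0.0497, and that of the other 110 members from -0.0066 to 0.026. The KRAB median in BLA-A ranged from -0.67 to -0.43 under the 7 alternatives of scaling, pseudocount and left-out columns, and was -0.39 in the 28 KRAB members without an overlapping gene. Of 2562 values of the 61 named genes under alternatives, 21 fell short of the threshold, 6 passed it and none that had passed it changed sign. With 1 library per condition, neither depth nor counting error covers differences between cultures.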

Other observations

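The symbols of the Zfp36 paralogs do not meet the naming rule, so their values stand here. Zfp36l1, which like Zfp36 binds AU-rich elements and promotes decay, measured 81.3, 66.9, 85.8, 140.5 and 88.7 CPM across the libraries. Zfp36l2 was at 267.5, 181.0, 229.4, 404.5 and 230.8 CPM. In both genes BLA-A was the highest library and BLA the lowest, with log2 fold changes of 1.06 and 1.16 between them, and against untreated cells they were at 0.79 and 0.60 in BLA-A. Neither passed the quasi-likelihood test of nanoparticle against extract (edgeR, adjusted p = 0.698 for each).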
